A study of Homo sapiens with 6 samples.

Results

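The small nucleolar RNA (snoRNA) host genes described here are the genes of the deposited table whose symbol starts with SNHG, together with GAS5, ZFAS1, EPB41L4A-AS1, DANCR and TAF1D, and whose mean over the 6 libraries was at least 5 normalised counts. Of the 60668 genes in the table, 33 had such a symbol and 28 of these reached the minimum. SNHG22 and SNHG25 had reads but stayed below it, and SNHG18, SNHG27 and SNHG28 had no read in any library. The rule used names and the mean level, and no contrast between conditions. The set itself was chosen with earlier results of these data known. Of the 28 genes, 27 are annotated as long non-coding RNAs and TAF1D is protein coding.

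A snoRNA host gene carries snoRNAs in its introns. When the host transcript is spliced, the introns are trimmed to snoRNAs that guide 2′-O-methylation (C/D box) or pseudouridylation (H/ACA box) of ribosomal RNA, and scaRNAs do the same for spliceosomal RNA. The spliced RNA that is left over often has only short open reading frames, and many such RNAs are exported, translated and then removed by nonsense-mediated decay (NMD), so that they accumulate when translation is blocked. Several hosts also start with a pyrimidine tract like that of the terminal oligopyrimidine (TOP) mRNAs of ribosomal proteins. The files hold RNA levels only, and neither translation nor decay was measured in them.

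MiaPaCa-2, an established human pancreatic ductal adenocarcinoma (PDAC) cell line, was kept for 48 h in medium with 2.5 mM glucose (low glucose, n = 3 libraries) or with 25 mM glucose (control, n = 3 libraries). The design text calls the replicates independent biological ones, and the treatment text of all 6 samples gives 2.5 mM, although the titles of 3 samples read control. Low glucose replicates 1 and 2 are named by the labels, whereas the third low-glucose library and the control libraries, here control A, B and C in the order of the table, were grouped by the run of their column names. KRT8, KRT18 and VIM, expected of a carcinoma cell with mesenchymal features, were at 13148 or more in every library, PTPRC, INS and PRSS1 had no read, and COL1A1 stayed at 13.5 or less and PECAM1 at 3.34 or less.

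All 28 genes hold at least 1 RefSeq snoRNA or scaRNA inside their span. Only C/D box snoRNAs lie in 11 of them, only H/ACA box snoRNAs in 11, both kinds in 3 (GAS5, TAF1D and SNHG12), and a scaRNA in 3 (SNHG10, SNHG20 and SNHG21). GAS5 holds 11 snoRNAs, TAF1D and SNHG1 8 each, and SNHG14, the host of the imprinted clusters of the Prader-Willi region, 83. The following sequences are shown because they are the stable products of hosts whose RNA levels are compared below. They are written as DNA, 5′ to 3′, with the box C (TGATGA in the first 20 bases) and box D (CTGA in the last 20 bases) of C/D snoRNAs, or the ACA near the end of H/ACA snoRNAs, in capitals. The first comes from hg38 at its RefSeq position and the others from Gencode v44. SNORD44 lies in GAS5 at chr1:173865968-173866028 (minus strand), SNORD48 in SNHG32 at chr6:31835263-31835326 (plus strand), SNORD12C in ZFAS1 at chr20:49278940-49279028 (plus strand), and SNORD50B in SNHG5 at chr6:85677589-85677658 (minus strand). SNORD25 lies in SNHG1 at chr11:62855564-62855632 (minus strand), SNORA24 in SNHG8 at chr4:118279190-118279320 (plus strand), and SNORA26 in DANCR at chr4:52713249-52713370 (plus strand).
SNORD44: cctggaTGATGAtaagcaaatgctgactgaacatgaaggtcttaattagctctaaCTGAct
SNORD48: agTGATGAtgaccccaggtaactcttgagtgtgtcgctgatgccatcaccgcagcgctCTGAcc
SNORD12C: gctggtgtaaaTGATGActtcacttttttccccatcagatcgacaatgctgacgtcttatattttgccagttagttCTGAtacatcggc
SNORD50B: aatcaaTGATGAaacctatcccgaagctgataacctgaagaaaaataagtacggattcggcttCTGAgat
SNORD25: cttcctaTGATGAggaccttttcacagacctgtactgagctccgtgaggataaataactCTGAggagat
SNORA24: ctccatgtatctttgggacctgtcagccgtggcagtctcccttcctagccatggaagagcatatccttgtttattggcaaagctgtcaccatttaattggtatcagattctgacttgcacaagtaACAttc
SNORA26: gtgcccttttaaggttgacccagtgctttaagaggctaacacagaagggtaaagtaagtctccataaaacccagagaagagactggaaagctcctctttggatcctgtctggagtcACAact
The C/D letters at both ends are found in 191 of the 296 SNORD genes of Gencode (64.5%), and ACA within 10 bases of the end in 133 of 152 SNORA genes (87.5%).

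The start sites of 9 hosts are shown next because a C followed by pyrimidines is the start of a TOP RNA. Each line has 30 bases before and 30 bases from the RefSeq start (GRCh38.p14), and the capitals mark an unbroken run of C and T that begins with C at the start itself. ZFAS1 is read from chr20:49278612-49278671 (plus), SNHG32 from chr6:31834886-31834945 (plus), SNHG5 from chr6:85678704-85678763 (minus), SNHG4 from chr5:139274071-139274130 (plus) and SNHG12 from chr1:28581844-28581903 (minus). SNHG1 is read from chr11:62855856-62855915 (minus), SNHG8 from chr4:118278732-118278791 (plus), SNHG29 from chr17:16438957-16439016 (plus) and DANCR from chr4:52712364-52712423 (plus).
ZFAS1: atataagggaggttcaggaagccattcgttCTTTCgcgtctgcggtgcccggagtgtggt
SNHG32: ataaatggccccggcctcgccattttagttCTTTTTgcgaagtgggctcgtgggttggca
SNHG5: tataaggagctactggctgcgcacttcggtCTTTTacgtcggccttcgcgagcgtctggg
SNHG4: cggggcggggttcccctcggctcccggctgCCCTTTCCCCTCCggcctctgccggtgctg
SNHG12: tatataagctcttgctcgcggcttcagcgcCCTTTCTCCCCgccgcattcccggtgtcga
SNHG1: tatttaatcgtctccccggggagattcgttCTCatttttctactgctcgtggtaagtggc
SNHG8: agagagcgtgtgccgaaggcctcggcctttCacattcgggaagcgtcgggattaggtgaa
SNHG29: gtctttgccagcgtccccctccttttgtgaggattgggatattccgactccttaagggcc
DANCR: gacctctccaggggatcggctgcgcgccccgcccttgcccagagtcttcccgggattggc
A start of C followed by 3 bases that are C or T, on the strand of the gene, was found for 9 of the 25 hosts in the RefSeq promoter table (36%) and for 5.45% of its 35116 promoters. These 9 are ZFAS1, TAF1D, SNHG4, SNHG5, SNHG7, SNHG12, SNHG19, SNHG26 and SNHG32. At the starts of the Gencode canonical transcripts the same letters stood in 6 of 28 hosts (21.4%) and in 3.87% of 62700 transcripts, and there the 6 were GAS5, SNHG7, SNHG12, SNHG29, TAF1D and ZFAS1. The entry of 7 of the 25 hosts therefore depends on the start used, with GAS5 and SNHG29 counted at the Gencode start only, and SNHG4, SNHG5, SNHG19, SNHG26 and SNHG32 at the RefSeq start only. From 250 bases before to 50 bases after the start, CACGTG (an E-box, which reads the same on both strands) was present in 2 of 25 hosts (SNHG7 and SNHG30, 8%) and in 7.26% of all promoters. TGATGNAA, searched on both strands as the letters bound by ATF4 with its partners, was present in 0 of 25 and in 3.62% of all.

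The libraries held 9741183 to 10190154 reads on genes in control and 10595408 to 13733477 in low glucose. Values are the deposited counts divided by a size factor per library, called normalised counts below, and differences are log2 fold changes of (value + 1), low glucose minus control, from limma across 21101 genes (two-sided, Benjamini-Hochberg adjustment, threshold 0.05). Control libraries differed from each other more than low-glucose libraries did, the chi-square per gene between pairs being 4.63 to 18.9 against 1.90 to 2.89, where counting noise alone gives about 1. Control B stood apart in the host genes, though not in these alone. It had the lowest value of the 6 libraries in 27 of the 28 hosts (96.4%), and the exception was SNHG31. Control B was also the lowest in 75 of 83 cytosolic ribosomal protein genes (90.4%), compared with 24.5% of all genes tested. In 26 of the 28 hosts (92.9%) the controls were ordered B, A, C from low to high, an order that held in 21.8% of all genes. The same order held in 77 of 83 cytosolic ribosomal protein genes (92.8%). The median log2 difference of control B from the mean of A and C was -0.74 over the hosts, -0.43 over the ribosomal protein genes and 0.02 over all genes. The calls and log2 fold changes of the hosts are therefore given with all libraries and without control B, and the part of this library in the results beyond those values was not tested.

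The reads on the 28 hosts made up 0.153%, 0.103% and 0.178% of all reads in controls A, B and C, and 0.226%, 0.222% and 0.217% in low glucose replicates 1 and 2 and the third low-glucose library. The low-glucose libraries lay together and above every control library. Within groups the hosts also spread unequally, with a median SD on the log2 scale of 0.45 over the controls and 0.093 in low glucose, beside 0.24 and 0.15 over all genes tested.

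**Figure D1:**
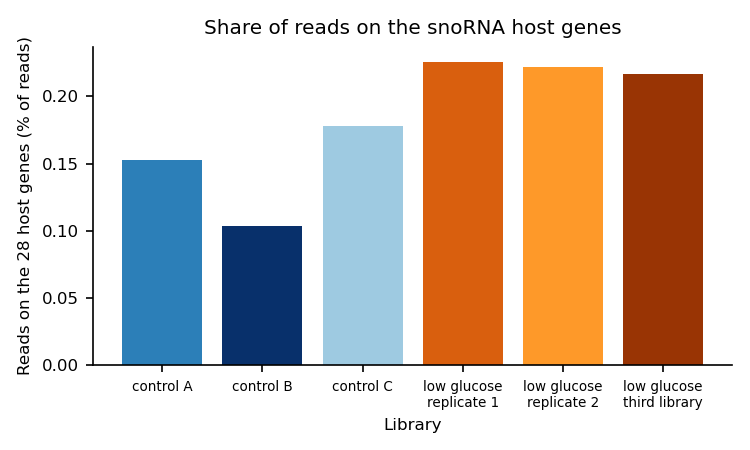
Share of the reads of each library that fell on the 28 snoRNA host genes, in percent (1 bar per library, no error bar because each bar is 1 library). The 3 low-glucose bars lie between 0.217% and 0.226%, above the control bars at 0.103% to 0.178%, of which control B is the lowest.

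In low glucose, 13 of the 28 hosts were higher and 0 lower (limma, adjusted p under 0.05). Across all genes tested 30.9% passed, 14.7% higher and 16.2% lower. By edgeR the same 13 hosts were higher, as were 3200 of the 15322 genes it tested. DESeq2 called 11 of the 13 higher, without SNHG5 and SNHG26, and both methods called 0 hosts lower. At an unadjusted limma p under 0.05, 16 hosts passed, all of them higher, and 41.1% of all genes passed in either direction. A log2 fold change of at least 1 in either direction, beside an adjusted p under 0.05, was met by GAS5 and SNHG8 (6.6% of all genes) and by 0 hosts without control B (6.64% of all genes). Values are scaled by a size factor taken from the other genes of a library, and are thus relative levels. A change in host RNA per cell and a change in the other RNA cannot be told apart. With control B left out, 12 hosts were higher and 2 lower, where 34% of all genes passed, 16.4% as higher and 17.6% as lower. The median log2 fold change of the 28 hosts was 0.45, and 0.19 without control B, compared with 0.05 and 0.04 over all genes. All 3 low-glucose values lay above all 3 control values in 14 hosts (22.1% of all genes tested) and below them in 0 (21.8% of all genes). The 13 were GAS5, SNHG29, SNHG5, SNHG7, SNHG4, SNHG8, SNHG15, SNHG20, SNHG26, SNHG32, ZFAS1, EPB41L4A-AS1 and TAF1D. Without control C 20 hosts were higher, beside 16.5% of all genes, the other 7 being SNHG3, SNHG6, SNHG11, SNHG12, SNHG16, SNHG17 and SNHG19. SNHG26 was not called without control B, and DANCR and SNHG30 were the 2 called lower then. For each of the 14 hosts without overlap, the exact permutation test over 6 libraries gave p = 0.1, the smallest that 3 against 3 libraries allow.

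**Figure D2:**
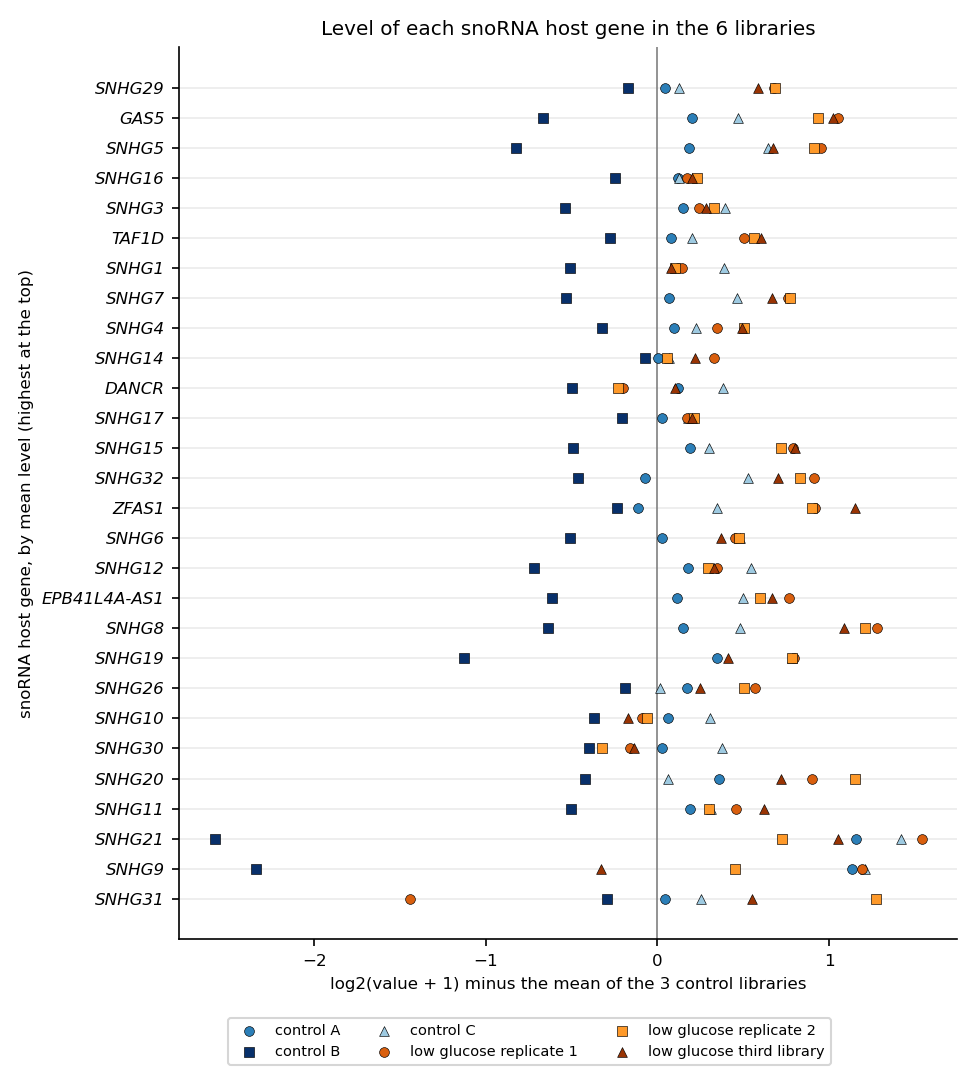
Level of each of the 28 snoRNA host genes in the 6 libraries, as log2(value + 1) minus the mean of the 3 control libraries (x axis), with genes ordered by mean level. Blue symbols are control and orange or brown symbols low glucose. Control B (dark square) is the lowest point in 27 rows, and in 14 rows every low-glucose point lies to the right of every control point.

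**Figure D3:**
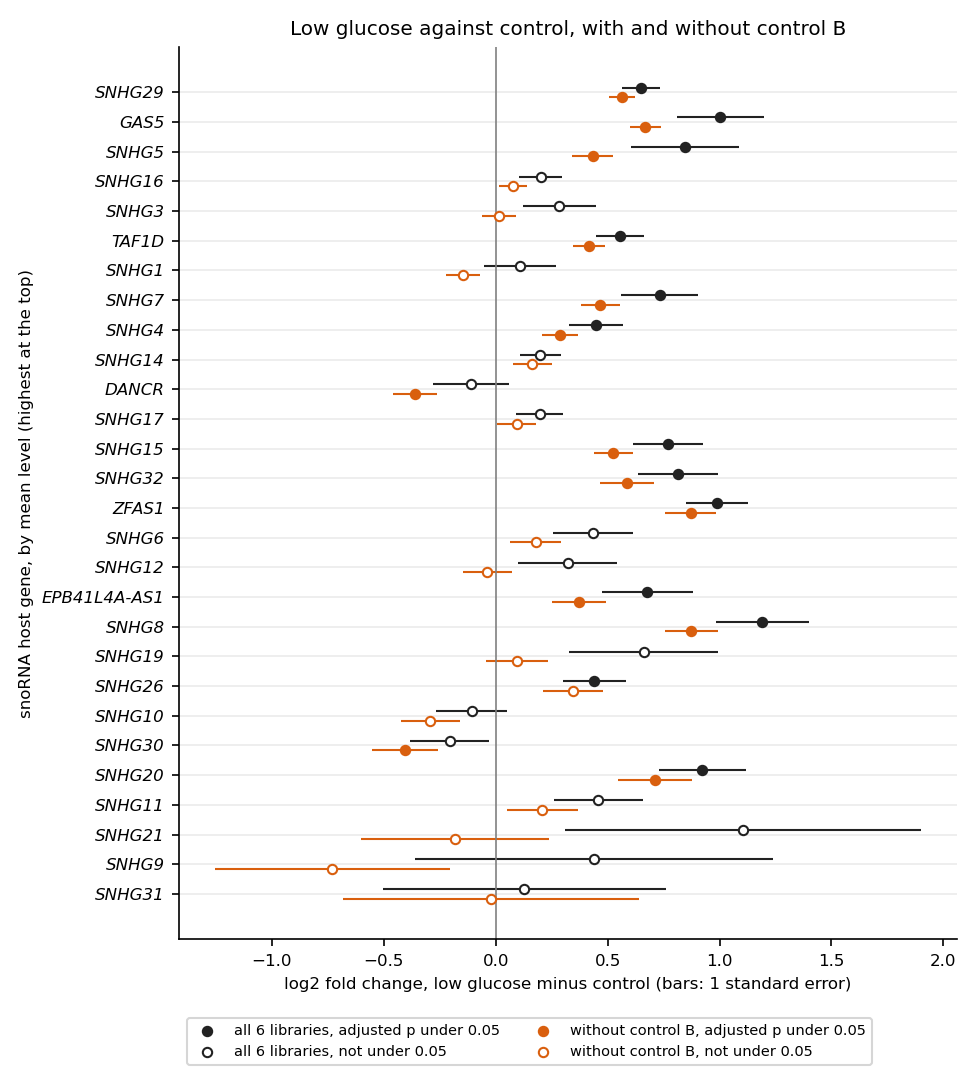
Log2 fold change of each snoRNA host gene, low glucose minus control, with 1 standard error, from limma with all 6 libraries (black) and without control B (orange). Filled points have an adjusted p under 0.05. There are 13 filled black points, all to the right of 0, and 14 filled orange points, of which DANCR and SNHG30 lie to the left.

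Per length of the canonical transcript, SNHG29 was the most abundant of the group. TPM values (read counts per length, scaled to a fixed sum, and computed here from the length of the Gencode canonical transcript) were 1379 ± 113 (SD, n = 3) in control and 2108 ± 60.4 (SD, n = 3) in low glucose. SNHG16 followed in control at 518 ± 64.8 TPM and GAS5 at 412 ± 142 TPM (SD, n = 3 each), and these spreads overlapped. Within each of controls A, B and C, however, SNHG16 had more reads per length than GAS5. The reads were 1371, 1069 and 1438 on 498 bases for SNHG16, and 1705, 938 and 2148 on 768 bases for GAS5. In low glucose GAS5 reached 769 ± 36.2 TPM and SNHG16 578 ± 11.2 TPM, which lie apart beyond their spread. SNHG5 stood at 223 ± 97.2 TPM in control and 364 ± 34.2 TPM in low glucose, and SNHG1 at 147 ± 40.3 and 151 ± 3.12 TPM. At the low end were SNHG9 (3.67 ± 3.18 TPM in control), SNHG21 (2.07 ± 1.80 TPM) and SNHG31 (0.361 ± 0.0732 TPM). These levels depend on the transcript chosen, since canonical lengths range from 339 bases (SNHG9) to 7005 bases (SNHG14). Gene counts also do not separate spliced from unspliced RNA of a host. Gencode lists 29 retained-intron transcripts for GAS5 and 13 for SNHG1.

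GAS5 (ENSG00000234741.8, chr1:173858559-173868882, minus strand, 12 exons in the canonical transcript) is the host that was named for its accumulation in growth-arrested cells, and it carries SNORD44 and 10 other snoRNAs. Its normalised counts were 1911, 1045 and 2298 in controls A, B and C, and 3444, 3183 and 3371 in low glucose replicates 1 and 2 and the third library, the order also used for the hosts below. Every low-glucose value was above every control value, and control B was the lowest. On the log2 scale the difference was 1.0 (limma, standard error 0.194, adjusted p = 0.00127), and 0.67 without control B (limma adjusted p = 2.40e-08). Over all alternatives the adjusted p ran from 2.30e-15 to 0.0753, the last from limma without the trend of variance with expression. GAS5-AS1 shares 132 bp of exon with GAS5 on the other strand and also rose (log2 fold change 1.91), at 7.98% of the level of GAS5. The library kit kept strand but the strand setting of the counting is not given in the sources used here, so reads of such pairs may be shared.

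SNHG29 (ENSG00000175061.18, chr17:16438767-16480249, plus strand), the host of SNORD49A, SNORD49B and SNORD65, had normalised counts of 3459.5, 2977 and 3667 in control A, B and C. In low glucose they were 5379, 5393 and 5033 (replicates 1 and 2 and the third library). The groups did not overlap, and this host varied least with control B among those that rose. Its log2 fold change was 0.65 (limma, standard error 0.0857, adjusted p = 5.52e-05) and 0.56 without control B. LRRC75A, on the other strand with 500 bp of shared exon and 47.7% of the level, rose by 0.70. SNHG29 was 1 of 4 hosts, with ZFAS1, SNHG8 and SNHG20, that were higher in all 19 settings tried.

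ZFAS1 (ENSG00000177410.13, chr20:49278178-49299600, plus strand) is an antisense RNA at the start of ZNFX1 and hosts SNORD12, SNORD12B and SNORD12C. The normalised counts were 224, 206 and 309 in control A, B and C and 459, 453 and 540.2 in the low-glucose libraries (replicates 1 and 2 and the third). All low-glucose values lay above the highest control, control C. The difference was a log2 fold change of 0.99 (limma, standard error 0.136, adjusted p = 8.30e-05) and 0.87 without control B. ZNFX1, a helicase gene that shares 249 bp of exon with ZFAS1 on the other strand, moved the other way and fell by 0.31 on the log2 scale.

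SNHG5 (ENSG00000203875.12, chr6:85650491-85678932, minus strand), the host of SNORD50A and SNORD50B, had 1702, 845 and 2338 normalised counts in control A, B and C and 2900.2, 2824 and 2385 in low glucose. The third low-glucose library was close to control C, although the groups did not overlap. The log2 fold change was 0.85 (limma, standard error 0.243, adjusted p = 0.0162), and 0.43 without control B (limma adjusted p = 0.000599). It did not pass when low glucose replicate 1 (0.0992), replicate 2 (0.0811) or the third library (0.0601) was left out, and DESeq2 gave an adjusted p of 0.181.

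SNHG32 (ENSG00000204387.14, chr6:31834608-31839766, plus strand) hosts SNORD48 and SNORD52 in the class III region of the major histocompatibility complex. It had 254, 194 and 386 normalised counts in control A, B and C and 504, 476 and 436 in low glucose, with no overlap. On the log2 scale the difference was 0.82 (limma, standard error 0.179, adjusted p = 0.00301) and 0.59 without control B. SNHG26 (ENSG00000228649.9, chr7:22854126-22872952), the host of SNORD93, had 147, 114 and 132 in control A, B and C and 193, 185 and 155 in low glucose. Here the third low-glucose library was nearest to the controls. The log2 fold change of 0.44 (limma adjusted p = 0.0266) was not called without control B (0.0507), without low glucose replicate 1 (0.135) or without replicate 2 (0.112). With all libraries, DESeq2 gave SNHG26 an adjusted p of 0.0552.

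Among C/D hosts not called, SNHG16 had 1537, 1192 and 1539 normalised counts in control A, B and C and 1591, 1654 and 1625 in low glucose. The groups did not overlap, by a narrow gap over controls A and C. Its log2 fold change was 0.20 (limma adjusted p = 0.130), and 0.08 without control B, and it passed without control C (0.0400). SNHG16 shares 1648 bp of exon with the protein-coding gene ENSG00000284526 on the other strand, which had a log2 fold change of 0.16. SNHG1 (ENSG00000255717.7, chr11:62851978-62855953, minus strand), among the hosts first recognised to be stabilised by translation inhibitors, had 997, 643 and 1200.4 in control A, B and C and 1014, 984 and 966 in low glucose. All low-glucose values fell between the controls. Its log2 fold change was 0.11 (limma adjusted p = 0.654), and -0.15 without control B. SLC3A2, the heavy chain of several amino acid transporters, starts 51 bp from SNHG1 on the other strand and rose by 0.85 (limma). SNHG6 had 244, 168 and 335 in control and 328, 334 and 311 in low glucose, with a log2 fold change of 0.43 (limma adjusted p = 0.0813), 0.18 without control B, and it passed without control C (0.00119). SNHG19 had 169, 60.2 and 229 in control and 231, 229 and 177 in low glucose. For SNHG19 the log2 fold change fell from 0.66 with all libraries to 0.10 without control B, and it was called only without control C (limma adjusted p = 0.00902).

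The remaining C/D hosts were SNHG14 and SNHG30. SNHG14 had 515, 487 and 537 normalised counts in control and 644, 532 and 596 in low glucose, so that replicate 2 lay within the controls, and the log2 fold change was 0.20 (limma adjusted p = 0.120) and 0.16 without control B. Its partner on the other strand, the ubiquitin ligase gene UBE3A, which SNHG14 is known to silence on the paternal allele in neurons, shares 1822 bp of exon and fell by 0.37 on the log2 scale. SNHG30 had 133, 99.2 and 170.1 in control and 117, 105 and 119 in low glucose. Low glucose lay within the controls when control B was included and below them without it, where SNHG30 was lower by limma (log2 fold change -0.41, adjusted p = 0.0374).

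SNHG8 (ENSG00000269893.8, chr4:118278703-118285316, plus strand), the host of SNORA24, had the largest log2 fold change of all hosts with all libraries. It had 147, 84.7 and 185 normalised counts in control A, B and C, from 76 to 173 reads, and 322, 306 and 282 in low glucose, from 310 to 372 reads. The groups were well apart, with the lowest low-glucose value above the highest control. The difference was a log2 fold change of 1.19 (limma, standard error 0.207, adjusted p = 0.000533) and 0.87 without control B. PRSS12, which shares 2487 bp of exon on the other strand, had 8.68% of the level and a log2 fold change of -0.31 (limma adjusted p = 0.526).

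SNHG7 (ENSG00000233016.7, chr9:136721366-136728184, minus strand) hosts a pair of H/ACA snoRNAs, SNORA17A and SNORA17B. Its normalised counts were 685, 451 and 901 in control A, B and C and 1105, 1115 and 1038 in low glucose, without overlap. The log2 fold change was 0.73 (limma, standard error 0.171, adjusted p = 0.00456) and 0.47 without control B. DIPK1B, on the other strand with 1482 bp of shared exon and 31.8% of the level, rose by 0.48. SNHG15 (ENSG00000232956.9, chr7:44983019-44986961, minus strand), the host of SNORA9, had 336, 209.5 and 363 in control A, B and C and 509.8, 485 and 514 in low glucose. All low-glucose values exceeded the controls by more than the controls A and C differed. Its log2 fold change was 0.77 (limma, standard error 0.157, adjusted p = 0.00183) and 0.52 without control B.

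SNHG4 (ENSG00000281398.4, chr5:139274102-139284899, plus strand), the host of SNORA74A and SNORA74D, had 605, 453 and 662 normalised counts in control A, B and C and 719.5, 803 and 797 in low glucose. Replicate 1 was the low-glucose library nearest to the controls, and the groups did not overlap. On the log2 scale the difference was 0.45 (limma adjusted p = 0.0108) and 0.29 without control B, and it did not pass with low glucose replicate 2 (0.0658) or the third library (0.0714) left out. EPB41L4A-AS1 (ENSG00000224032.7, chr5:112160526-112164818, plus strand), the host of SNORA13, had 183, 110.3 and 239.7 in control A, B and C and 289, 257 and 269 in low glucose. Control C came close to low glucose replicate 2. The log2 fold change of 0.68 (limma adjusted p = 0.0195) was 0.37 without control B (0.0167), and it was not called without control A (0.0548), low glucose replicate 1 (0.106), replicate 2 (0.0628) or the third library (0.0895). EPB41L4A, whose transcript shares 2200 bp of exon on the other strand, had 27.0% of the level and a log2 fold change of -0.04.

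DANCR (ENSG00000226950.7, chr4:52712325-52723623, plus strand), the host of SNORA26 and an RNA named for its block of cell differentiation, did not rise. It had 554, 360.0 and 663 normalised counts in control A, B and C and 442, 435 and 546 in low glucose. The low-glucose values lay above control B and below controls A and C. The difference was a log2 fold change of -0.11 with all libraries (limma adjusted p = 0.668), and -0.36 without control B (limma adjusted p = 0.00612), so that control B decides its call. SNHG3, the host of SNORA73A and SNORA73B, had 989.9, 615 and 1173 in control and 1055, 1123 and 1089 in low glucose, all between control A and control C. Its log2 fold change was 0.28 (limma adjusted p = 0.212) and 0.02 without control B, and it passed without control C (0.0124). RCC1, the nucleotide exchange factor of Ran, starts 37 bp away on the same strand, shares 242 bp of exon with SNHG3 and fell by 0.67 on the log2 scale.

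SNHG17 had 406, 346 and 450.4 normalised counts in control and 448, 462 and 458 in low glucose, and its log2 fold change was 0.20 (limma adjusted p = 0.170, and 0.0324 without control C) and 0.09 without control B. SNHG11 had 94.2, 58.0 and 103 in control and 114, 102 and 127 in low glucose, with a log2 fold change of 0.46 (limma adjusted p = 0.0984, and 0.0261 without control C) and 0.21 without control B. In both hosts control C was as high as the low-glucose libraries or nearly so. The 2 rarest H/ACA hosts gave no precise value. SNHG9, which starts 54 bp from the ribosomal protein gene RPS2, had 9, 0 and 10 reads in control A, B and C and 4 to 11 in low glucose. For SNHG31 the control libraries held 3 to 5 reads and those of low glucose 1 to 12. The log2 fold change of SNHG9 was 0.44 with all libraries and -0.73 without control B, and that of SNHG31 0.13 and -0.02. Their standard errors were 0.799 and 0.633 on the log2 scale, so that changes of the size seen in the other hosts were not detectable at this depth.

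TAF1D (ENSG00000166012.17, chr11:93729948-93784391, minus strand) encodes a subunit of the SL1 factor that RNA polymerase I needs to transcribe ribosomal RNA, and it hosts 6 H/ACA and 2 C/D snoRNAs. Gencode lists 22 transcripts for it, 7 of the NMD type and 3 protein coding, and gene counts do not separate these. Its normalised counts were 831, 649 and 905 in control A, B and C and 1117, 1163 and 1194 in low glucose. No value of low glucose reached down to the controls. The log2 fold change was 0.56 (limma, standard error 0.107, adjusted p = 0.00117) and 0.42 without control B. MED17, a Mediator subunit gene that starts 164 bp away on the other strand, had a log2 fold change of -0.08 (limma adjusted p = 0.732), and C11orf54, with 35 bp of shared exon and 6.09% of the level, rose by 1.29. SNHG12, which like TAF1D carries both kinds of snoRNA, had 258, 138 and 333 in control and 291, 279.6 and 286 in low glucose, between control A and control C. Its log2 fold change was 0.32 (limma adjusted p = 0.297), -0.04 without control B, and it passed without control C (0.0191).

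Of the 3 scaRNA hosts, SNHG20 (ENSG00000234912.12, chr17:77086716-77099902, plus strand), the host of SCARNA16, rose. It had 90.8, 52.4 and 73.8 normalised counts in control A, B and C and 133, 158 and 117 in low glucose. The groups were apart, with control A the highest control. On the log2 scale the difference was 0.92 (limma, standard error 0.196, adjusted p = 0.00244) and 0.71 without control B. SEC14L1, which lies downstream on the same strand, shares 460 bp of exon with SNHG20 and has a far higher gene count, fell by 0.50 on the log2 scale. SNHG10 had 159, 118 and 189 in control and 143, 146 and 136 in low glucose, with a log2 fold change of -0.11 (limma adjusted p = 0.654), and -0.29 without control B (0.0961). SNHG21 had 11, 0 and 14 reads in control A, B and C and 9 to 17 in low glucose, and its log2 fold change of 1.11 (limma, standard error 0.796, adjusted p = 0.324) became -0.18 without control B.

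Adjusted p-values of the hosts whose call turned on single libraries covered a wide range over all alternatives. Among those higher with all libraries it was 0.000176 to 0.182 for SNHG5, 0.000920 to 0.120 for SNHG4, 0.000442 to 0.162 for EPB41L4A-AS1 and 0.0130 to 0.183 for SNHG26 (limma, edgeR and DESeq2). For hosts not called it was 0.00612 to 0.92 for DANCR, 0.0344 to 0.946 for SNHG30, 0.00684 to 0.470 for SNHG16, 0.0124 to 0.954 for SNHG3 and 0.00119 to 0.484 for SNHG6. The range was 0.0191 to 0.855 for SNHG12, 0.00902 to 0.786 for SNHG19, 0.0324 to 0.624 for SNHG17 and 0.0261 to 0.538 for SNHG11.

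Hosts of each kind of snoRNA were among those that rose. Of the hosts of C/D snoRNAs only, 5 of 11 were higher (median log2 fold change 0.44), as were 5 of 11 of the H/ACA only (median 0.45), 2 of 3 with both and 1 of 3 of the scaRNA hosts. Beside them stood 14.7% of all genes and 17.6% of those with a mean of at least 5. Without control B the numbers were 4, 5, 2 and 1, and 1 C/D and 1 H/ACA host were lower. No test between these classes was made. Of the 9 hosts with a pyrimidine start in RefSeq, 7 were higher (ZFAS1, TAF1D, SNHG4, SNHG5, SNHG7, SNHG26 and SNHG32), and SNHG12 and SNHG19 were not called. Of the 16 RefSeq starts without it, 5 were higher, and without control B the numbers were 6 of 9 and 5 of 16. With the Gencode starts, 5 of 6 hosts with a pyrimidine start and 8 of 22 without one were higher, and SNHG4, SNHG5, SNHG26 and SNHG32 were among the latter. The difference was not tested. On the other strand of a host lay 33 genes, of which 26, at 20 hosts, had a mean of at least 5. These were higher in 7 cases and lower in 5, and 4 of the 13 rising hosts (GAS5, SNHG29, SNHG7 and TAF1D) had such a neighbour that also rose.

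Few of the snoRNA genes inside the hosts had reads of their own. Of 84 that lie in an exon of some isoform of the host 3 had a read in any library, and of 56 outside exons 10 had one. Most of the genes without a read lie in SNHG14, where only SNORD116-17 had a read, in 1 library. In the other hosts, every snoRNA gene outside exons had a read except SNORA70I and SCARNA15. Inside exons only SNORA13, SNORA26 and SNORD12B had one. How the counting treated reads that fall on both a host exon and a snoRNA is not given in the sources used here, and its part in these numbers was not tested. Of the snoRNA genes with reads, SNORA73B (in SNHG3), SNORA71B (in SNHG17) and SNORD99 (in SNHG12) had a mean of at least 5 normalised counts. SNORA73B had 57.2, 21.2 and 36.4 in control A, B and C and 21.2, 30.6 and 26.5 in low glucose, which overlap, with a log2 fold change of -0.44 (limma adjusted p = 0.34). SNORA71B and SNORD99 had means of 12 and 6.07 and log2 fold changes of -0.04 and -0.48, neither of them called. Whether mature snoRNAs changed with their hosts cannot be read from these values.

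Genes of the pathways around the hosts went in different directions. Of 21 factors of NMD and of translation termination, 11 were lower and 2 higher (median log2 fold change -0.30; 14 lower and 2 higher without control B). The largest falls were in EIF4A3 (-0.74) and RBM8A (-0.59), which are core proteins of the exon junction complex, and UPF3A (0.45) and SMG9 (0.24) were the 2 that rose. Of 9 mRNAs known as NMD targets, 8 were higher, with a median of 1.31, and 8 also without control B (median 1.23). DDIT3 rose by 2.84 and ATF3 by 2.77, and both, like ATF4 in the same list (1.04), are transcription factors of the integrated stress response that are also induced by transcription. Proteins that bind snoRNAs were lower or not called. Among the 8 core proteins 4 were lower and 0 higher (median -0.26), and 6 and 0 without control B (median -0.32), with DKC1, the pseudouridine synthase of H/ACA particles, at -0.75 and FBL, the methyltransferase of C/D particles, at -0.55. Among the 10 assembly factors 6 were lower and 0 higher (median -0.31), with the same numbers and median without control B, and NUFIP1 (-0.73) and SHQ1 (-0.72) were the farthest down. At an unadjusted p under 0.05 the numbers in the core and assembly lists were the same, and edgeR called 4 and 6 of them.

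Ribosomal protein genes, whose mRNAs are the classic TOP mRNAs, mostly showed the same order of the control libraries as most hosts. Of 83 tested, 28 were higher and 2 lower, the last being the paralogues RPL7L1 (-0.50) and RPL26L1 (-0.49), and 32 and 2 without control B. The number called in either direction depended on single libraries, with 13 without control A, 70 without control C, and 7, 10 and 15 without low glucose replicate 1, replicate 2 and the third library, in place of 30. RPL12 rose by 0.76 and RPS12 by 0.70, and the median was 0.27, and 0.14 without control B, beside 0.45 and 0.19 over the hosts. The difference between these lists was not tested. Other TOP mRNAs, mostly of translation factors, were 4 higher and 1 lower of 13, and 6 and 1 without control B. The 1 lower was HNRNPA1 (-0.56), which does not encode a translation factor. The median of the 13 was 0.13 (0.16 without control B), with EEF1B2 at 0.35 and EIF4B at 0.33. Their number called was 3 without control A, 7 without control B, and 2, 1 and 2 without low glucose replicate 1, replicate 2 and the third library, in place of 5. They did not share the control order, since control B was the lowest library in 23.1% of them. Other genes with a snoRNA inside them numbered 211, of which 172 were tested, and 29 of these were higher and 56 lower (median -0.05), and 35 and 61 without control B (median -0.01). Of the protein-coding ones among them, 25 of 159 were higher and 56 lower, for example NCL (-0.85), which encodes nucleolin, and POLA1 (-1.0), which encodes the catalytic subunit of DNA polymerase alpha. CCNB1IP1 (1.01) and ENSG00000252690 (1.29), which shares exons with SNHG21, rose most. RPL12, RPS12 and EEF1B2 hold snoRNAs and are counted in both lists. Without low glucose replicate 1, 56 of the other snoRNA hosts were called in place of 85, and the difference between these and the 28 hosts was not tested.

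**Figure D4:**
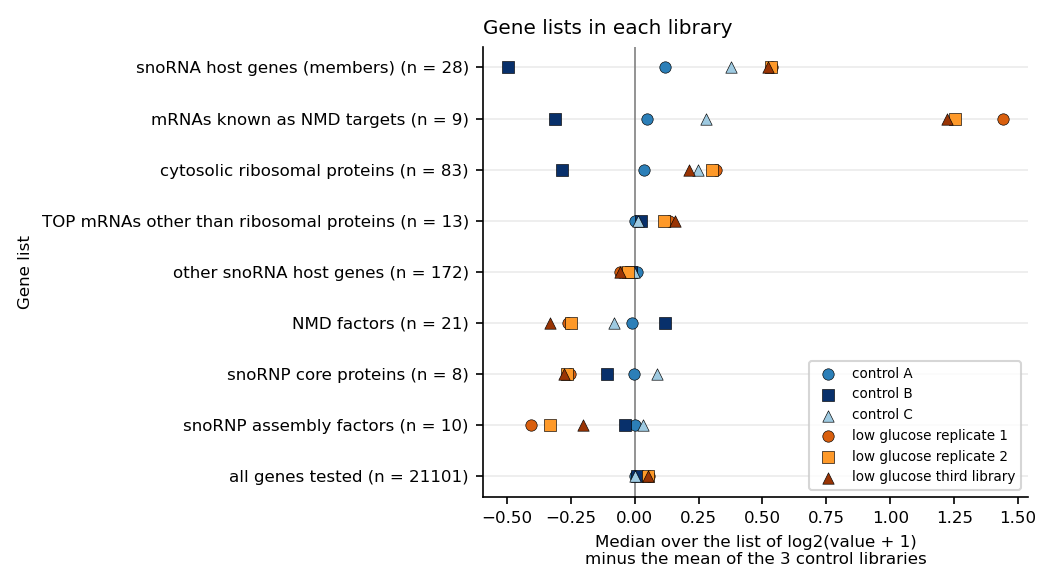
Median over each gene list of log2(value + 1) minus the mean of the 3 control libraries (x axis), for each of the 6 libraries, with the number of genes tested in parentheses. In the snoRNA host genes the controls spread from -0.49 (control B) to 0.38 (control C) and low glucose lies at 0.52 to 0.54. In the ribosomal protein genes control C (0.25) lies within the low-glucose libraries (0.21 to 0.32), and in the list of all genes the low-glucose libraries lie at 0.052 to 0.055 and the controls at 0 to 0.011.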

How the data were processed

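RNA-seq of 6 MiaPaCa-2 libraries was analysed from 1 table. Per the paper's methods and the submitters' processing notes, the authors prepared strand-specific libraries, trimmed reads with Trim Galore, mapped them to hg38 with STAR 2.7.0e and compared conditions with DESeq2. The paper's software list also holds RSEM, without saying whether it gave the counts of this table. The strand setting and annotation of the counting are not given in the sources used here. The values the authors deposited are a signal on a count scale, counts divided by 1 size factor per library. All values (100%) were whole multiples of 1 step per library (tolerance 0.001 reads), and recomputed median-of-ratios factors (17906 genes) matched, so whole reads were recovered. Of 60668 identifiers, 99.5% matched Gencode 44.

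The test was limma 3.58.1 (R 4.3.3; lmFit, eBayes with trend) on log2(value + 1) for 21101 genes with a mean of at least 1, without covariates, checked on simulated data. The simulated counts had the same dispersion in all genes and both groups. They therefore did not cover the wider spread of the control libraries or the shift of control B. The pseudocount of 1 understates changes of rare genes. With 3 libraries a group, an exact permutation p cannot be below 0.1. Host genes and gene lists were chosen with earlier results of these data known. Full values are given for hosts with an adjusted p under 0.05, the 6 with the highest mean and those whose call changes when 1 library is left out, and from other lists for the 2 largest changes each way. Genes on the other strand were named from those with a mean of at least 5 beside the hosts they bear on. Some of these genes are not reported here. Alternatives were other scalings, filters, pseudocount and variance model, DESeq2 1.42.0, edgeR 4.0.16 on the recovered reads, and each library left out. Sequences came from hg38, Gencode and RefSeq (GRCh38.p14). A trend with exon length removed (loess, span 0.3) and DESeq2 and edgeR without control B were chosen after seeing the data. No table column of samples was left unused.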

Additional observations from a re-analysis of the deposited data

How the results depend on the processing

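No paired analysis was possible because the table numbers its low-glucose columns 1 and 2 by label and leaves the other 4 unnumbered. Of 501 values of single hosts under the alternatives, 439 kept their direction and side of the threshold, 27 lost and 16 gained a call, and 19 changed direction. The median log2 fold change of the hosts stayed positive in every alternative. The cause of the changes below was not tested. With limma without variance trend, 4090 genes in the table were called in place of 6528, 4 hosts in place of 13 (4 higher), 6 NMD factors in place of 13, 1 TOP mRNA in place of 5, 3 ribosomal protein genes in place of 30 and 44 other snoRNA hosts in place of 85. With a log2 fold change of at least 1 required, 2 hosts (GAS5 and SNHG8) were called, beside 6.6% of all genes, and 0 hosts without control B (added after the data were seen). Quantile normalization moved the median of all genes by -0.15 (log2) and called 57 ribosomal protein genes, 8 TOP mRNAs and 2 snoRNP core proteins (4 otherwise), and library size scaling called 50 ribosomal protein genes. Without control B, DESeq2 called 10 hosts higher, 1 host lower and 8 TOP mRNAs, and edgeR 13 hosts higher, 2 hosts lower and 9 TOP mRNAs. Leaving out 1 library gave 4298 to 7173 genes in the table, 9 to 20 hosts called and 9 to 20 higher, 0 to 2 lower, 9 to 16 NMD factors, 4 to 6 core proteins, 1 to 7 TOP mRNAs, 7 to 70 ribosomal protein genes and 56 to 105 other hosts.

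Directions that changed belonged to hosts that were not called with all libraries. Without control B, limma, edgeR and DESeq2 gave -0.15, -0.13 and -0.15 for SNHG1, -0.037, -0.031 and -0.049 for SNHG12, -0.18, -0.15 and -0.16 for SNHG21, and -0.73, -0.70 and -0.69 for SNHG9, for which DESeq2 with all libraries gave -0.11. Without control C, DANCR was at 0.079 and SNHG10 at 0.046. Over the fits that left out 1 library, the range was -0.15 to 0.30 for SNHG1, -0.037 to 0.59 for SNHG12, -0.36 to 0.079 for DANCR, -0.29 to 0.046 for SNHG10, -0.18 to 1.82 for SNHG21, -0.73 to 1.04 for SNHG9 and -0.44 to 0.91 for SNHG31. SNHG31 was at -0.31 with quantile normalization, -0.02 without control B, -0.44 without low glucose replicate 2 and -0.09 without the third low-glucose library. Hosts with under 20 reads a library (SNHG9, SNHG21 and SNHG31) are limited by counting noise, and the 3 libraries a group limit the others.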

Other observations

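Outside the SNHG-named hosts, 24 other long non-coding RNA genes of the annotation hold a snoRNA, and 8 of these were tested. Higher in low glucose were 2 of the 8 (limma, adjusted p under 0.05), and the 8 had a median log2 fold change of 0.52. These 2 were named after their values were seen. TMEM161B-DT had 117 ± 25.0 normalised counts in control and 228 ± 18.8 in low glucose (SD, n = 3 each), and its log2 fold change of 0.97 was 0.79 without control B. The other, ENSG00000252690, shares exons with SNHG21 and was not called without control B.

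Among protein-coding snoRNA hosts, EIF4A2, a translation initiation helicase, was higher by 0.71 on the log2 scale, and DDX39B, an RNA export helicase that lies in the same region of chromosome 6 as SNHG32, by 0.61. Both were chosen after their values were seen.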
